A study of Mus musculus with 4 samples.

Results

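The antioxidant and glutathione enzymes were chosen by symbol and comprised the mitochondrial and extracellular superoxide dismutases, catalase, the peroxiredoxins, the glutathione peroxidases, the thioredoxin system, the enzymes that make and recycle glutathione, the glutathione S-transferases, and Nrf2 and Keap1 with the target genes Hmox1 and Nqo1. The rule matched 53 of the 27189 gene entries in the files, for 52 symbols, because Gsta2 had 2 entries, both with the same Entrez gene identifier. Of these, 40 reached the minimum mean RPKM of 1 and were tested. RPKM scales reads by exon length and by the mapped reads of a library, so levels of different genes are compared per length. Gpx8 is not analysed here.

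RNA was measured in 4 libraries of large ventral horn motor neuron cell bodies, cut by laser from the spinal cord of mice aged 3 months, with 3000 to 4000 cell bodies from the single animal behind each library. The study left G85R cell bodies with large fluorescent aggregates out of the capture, so the G85R values cover neurons without such aggregates. The wild-type SOD1-YFP mice (strain 592) carried the human SOD1 gene, under its own genomic sequence, fused to yellow fluorescent protein. The G85R SOD1-YFP mice (strain 737) carried the same fusion with the G85R mutation, and at this age were mostly presymptomatic. Mice of both genotypes therefore expressed a human SOD1 fusion. Each genotype was 1 transgenic line kept on a mixed C57BL/6J x SJL/J background. Transgene copy number was far higher in the mutant line than in the wild-type line, with similar levels of fusion protein in spinal cord. The mutation, the transgene copy number and the line therefore cannot be told apart. The comparison of 2 G85R with 2 wild-type libraries asks whether the mutant fusion is accompanied by other transcript levels in motor neurons before paralysis. An estimated 21560318 to 25186594 reads per library lay on genes, and the RPKM that 1 read is worth had a median over genes of 0.0195 to 0.0226. Motor neuron markers had the highest sum of the marker lists, with summed RPKM of 2599 and 2877 in wild-type against 2306 and 2689 in G85R for 9 marker entries, while the sums of the oligodendrocyte and astrocyte lists reached 1138 and 644 in the first G85R library and 10 microglial entries summed to 22.1 and 23.0 in wild-type against 53.9 and 26.2 in G85R. Of the astrocyte sum of 644, S100b alone held 498. In a bulk library, fewer cells of a type and less RNA per cell cannot be told apart.

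Superoxide dismutases turn superoxide into hydrogen peroxide, which catalase, the peroxiredoxins and the glutathione peroxidases then reduce. The peroxiredoxins draw electrons from thioredoxin and thioredoxin reductase, the glutathione peroxidases and S-transferases use glutathione, and both systems depend on NADPH. Nrf2 is the transcription factor that raises many of these genes when its inhibitor Keap1 is modified by oxidants or electrophiles, through a DNA element known as the antioxidant response element. SOD1 itself is the cytosolic dismutase, and mutations in it cause an inherited form of amyotrophic lateral sclerosis.

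The core of the antioxidant response element, TGACNNNGC, is shown for the members that carry it in the promoter searched, because it is the letter sequence of the element through which Nrf2 acts. It was searched on both strands of RefSeq promoters of build GRCm38.p6, from 250 bases before to 50 bases after a gene's start. Sites outside this window were not searched. The core was present for 8 of the 45 member symbols with a promoter in that table (17.8%), beside 3781 of all 27025 genes (14.0%). A match describes letters only. Each window is written 5′ to 3′ on the strand of the gene, with the core in capitals, and reads as its reverse complement where the core lies on the opposite strand.
Gstm7 (chr3:107931727-107931751, minus strand): tgaagaccTGACAAAGCgaagccaa
Gstm5 (chr3:107895804-107895828, plus strand): ccgcccacTGACCACGCggagggcg
Gsta3 (chr1:21240456-21240480, plus strand): ctcaggcaTGACATTGCatttttct
Nfe2l2 (chr2:75704887-75704911, minus strand): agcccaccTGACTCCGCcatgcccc
Gclm (chr3:122245415-122245439, plus strand): tcccgggcGCACCGTCAactctcac
Prdx1 (chr4:116685458-116685482, plus strand): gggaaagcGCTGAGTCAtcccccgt
Txnrd1 (chr10:82859106-82859130, plus strand): ggatttttGCTTTGTCAttctgaca
Srxn1 (chr2:152105544-152105568, plus strand): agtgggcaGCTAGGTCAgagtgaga
The cores of Gstm7 and Txnrd1 are the same 9 bases, on opposite strands relative to the gene. In Prdx1 the core reads TGACTCAGC on its own strand, which is opposite to that of the gene. Its base farthest upstream of the gene lies at position -133 relative to the gene's start. Of the 8 symbols, Gstm7 alone is among the members with an unadjusted p under 0.05 described next, and it was lower in the mutant. Gclc, Gsr, Gsta4, Gstt2, Hmox1, Prdx6 and Sod3 had no promoter in the table.

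No member was called between the genotypes by limma at a Benjamini-Hochberg adjusted p under 0.05, where 74 of 11530 tested genes were called (0.642%), 31 of them higher (0.269%) and 43 lower (0.373%) in G85R. At an unadjusted p under 0.05, 7 members passed, beside 1272 of all tested genes (11.0%). Hmox1, Gpx3 and Gstp1 had the higher values in G85R, and Gstm6, Gstm7, Gstt1 and Nqo1 the lower ones. In 18 of the 40 members (45.0%) the genotypes did not overlap, meaning that both G85R libraries lay above, or both below, the wild-type pair. This held for 41.2% of all tested genes, so the members' share was near the background. Of these 18 members, 11 were higher in G85R (background 17.3%) and 7 were lower (background 23.9%). A difference of at least 0.5 on the log2 scale as well was found in 4 members (background 6.05%), with Hmox1 higher (background 2.52%) and Gstm6, Gstm7 and Gstt1 lower (background 3.52%).

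The difference was under 0.3 on the log2 scale in 32 of 40 members, as it was in 9520 of the 11530 tested genes, and in 27 members the 95% interval lay within a 1.5-fold change either way. The median log2 fold change over the 40 members was 0.05, against -0.02 over all tested genes, and 25 members had a positive and 15 a negative value, where the background was 45.3% and 54.7%. Without wild-type replicate 1 the median was 0.0026 and 20 members had a positive value. The summed RPKM of all members was 1967 and 2041 in wild-type against 2167 and 2169 in G85R. The study's own type of test, a log-linear likelihood-ratio test on RPKM with 1 read added, took values rounded to whole numbers as counts. Its result therefore follows the RPKM level, and members of low RPKM could hardly pass it. By this test no member had an adjusted p under 0.05, where 62 of 27189 entries did (0.228%). Prdx5, the member with the highest RPKM, alone had a raw p under 0.05 (0.0107), beside 352 entries in all (1.29%). An exact permutation test for 1 gene has a smallest p of 0.333 with 2 libraries a genotype.

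**Figure D1:**
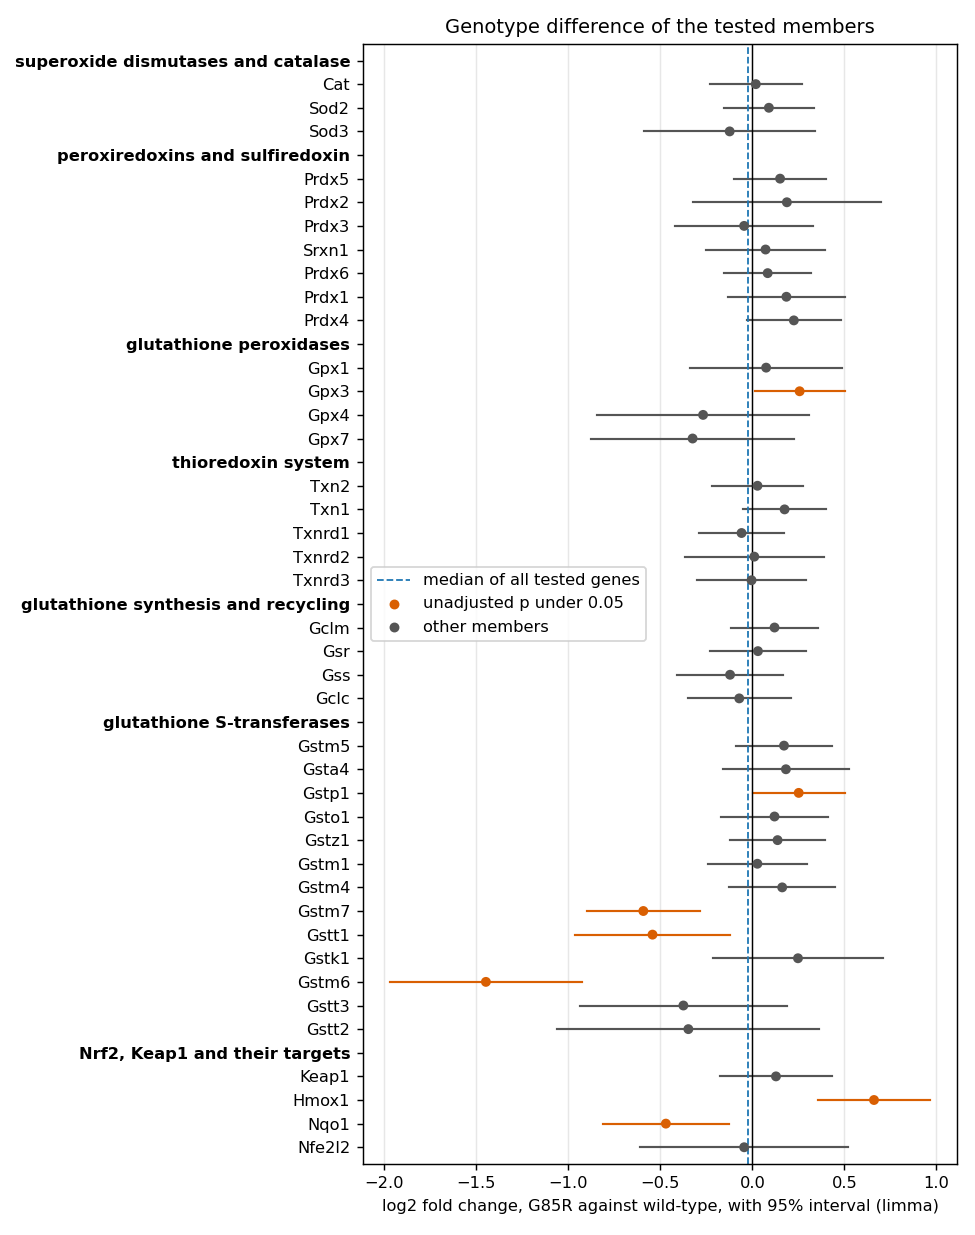
Log2 fold change (G85R against wild-type, on log2(RPKM + 0.1)) of the 40 tested members with the 95% interval from limma, grouped by role, with the median of all tested genes as a dashed line and the 7 members with an unadjusted p under 0.05 in orange. Gstm6 lies farthest from 0 at -1.45, Hmox1 is the highest at 0.66, and most intervals cross 0.

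The members covered a wide range of levels in these motor neurons. Their median RPKM was 20.0, against 10.1 for all tested genes, and 25 of them had a mean of at least 10. The 5 highest members, Prdx5, Prdx2, Gstm5, Gpx1 and Prdx3, held 54.1% of the members' summed RPKM, and Prdx5 alone held 27.9%.

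**Figure D2:**
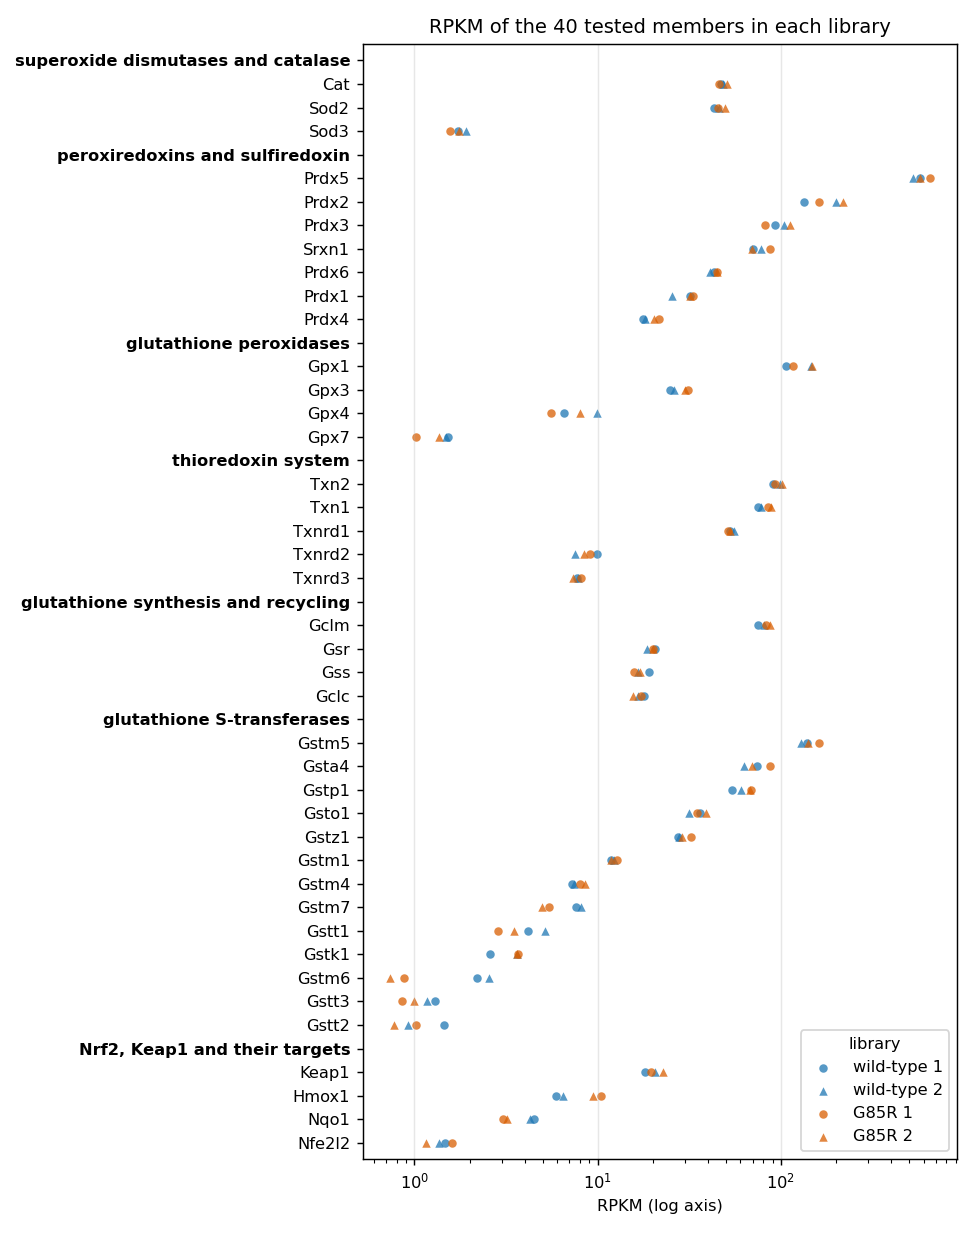
RPKM of the 40 tested members in each of the 4 libraries on a log axis, ordered by level within each role, with circles and triangles for replicates 1 and 2 and colour for genotype. Prdx5 lies above all other members in every library, and Gstm6, Gstm7, Gstt1, Nqo1 and Hmox1 are the members whose genotypes separate most visibly.

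Catalase (Cat), which breaks down hydrogen peroxide in peroxisomes, had RPKM of 47.2 and 48.5 in wild-type against 46.0 and 51.0 in G85R. The genotypes overlapped, with a log2 fold change of 0.02 ± 0.11 (SE) and an adjusted p of 0.974 (limma). Sod2, the manganese dismutase of the mitochondrial matrix, lay at nearly the same level, with 43.2 and 45.9 in wild-type against 45.6 and 49.2 in G85R, and 20.3% of its 75-base transcript windows have an exact copy elsewhere in the genome. Sod3, which is secreted, was low at 1.56 to 1.90 RPKM in the 4 libraries. No dismutase or catalase entry had genotypes apart, and the levels of Cat and Sod2 overlapped each other.

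Prdx5, a peroxiredoxin of mitochondria, peroxisomes and cytosol, was the most abundant member. Its RPKM was 574 and 527 in wild-type against 654 and 570 in G85R. The second G85R library lay just below the first wild-type library, and the log2 fold change of 0.15 ± 0.11 (SE) had an adjusted p of 0.693 (limma). Its exons overlap those of Trmt112 on the opposite strand, and reads of such a pair cannot be assigned without strand. Prdx2, the abundant cytosolic peroxiredoxin, had RPKM of 134 and 200 in wild-type against 160 and 218 in G85R. Its libraries differed more within a genotype than the genotype means did, 167 against 189. Prdx3, of the mitochondrial matrix, likewise overlapped between genotypes, with 93.3 and 103 in wild-type against 81.4 and 112 in G85R.

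Among the less abundant peroxiredoxins, Prdx4, which works in the endoplasmic reticulum, had 17.7 and 18.1 in wild-type against 21.5 and 20.4 in G85R. Both mutant libraries were higher, with a log2 fold change of 0.23 ± 0.11 (SE) and an adjusted p of 0.511 (limma). Prdx6, which uses glutathione, was also higher in both mutant libraries, by only 0.08 on the log2 scale. Prdx1 and Srxn1, the enzyme that repairs overoxidized peroxiredoxins, overlapped between genotypes, at 25.5 to 33.1 and 69.1 to 87.3 RPKM. Of the 7 peroxiredoxin and sulfiredoxin entries, 6 had a positive and 1 a negative fold change, all under 0.3 in size, and none was called.

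Gpx1, the cytosolic selenium-dependent glutathione peroxidase, had RPKM of 107 and 145 in wild-type against 117 and 147 in G85R. Its genotypes overlapped (log2 fold change 0.07 ± 0.17 SE, adjusted p = 0.939, limma). Gpx3, the secreted plasma form, had 24.9 and 25.9 in wild-type against 30.9 and 29.9 in G85R. Both mutant libraries of Gpx3 were above both wild-type libraries, by 0.26 ± 0.10 (SE) on the log2 scale, with an unadjusted p of 0.0422 and an adjusted p of 0.430 (limma).

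Gpx4, the peroxidase that reduces lipid hydroperoxides in membranes and restrains ferroptosis, had 6.54 and 9.95 in wild-type against 5.58 and 7.99 in G85R. Its libraries overlapped, and 48.2% of the 75-base windows of its transcripts have an exact copy elsewhere in the genome, so that its level from uniquely mapped reads is uncertain. Gpx7, of the endoplasmic reticulum, was at 1.52 and 1.48 in wild-type against 1.02 and 1.37 in G85R, with both mutant libraries lower. Gpx2, Gpx5 and Gpx6 were under the minimum: Gpx2 and Gpx6 were above 0 in 1 library each, at 0.0661 and 0.0742, and Gpx5 was listed at 0 in all 4.

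The thioredoxin system differed little. Txn2, the mitochondrial thioredoxin, was its highest member with 90.7 and 99.1 in wild-type against 92.6 and 101 in G85R, which overlap. Txn1, the cytosolic thioredoxin, had 75.4 and 78.3 in wild-type against 84.9 and 88.5 in G85R, with both mutant libraries higher and an adjusted p of 0.578 (log2 fold change 0.17 ± 0.10 SE, limma). Txnrd1, the cytosolic reductase, was lower in both mutant libraries by a log2 fold change of only -0.06. Txnrd2 and Txnrd3 overlapped, at 7.54 to 9.94 and 7.37 to 8.15 RPKM. Txnip, an inhibitor that binds thioredoxin, was under the minimum at 0.767 to 1.08 RPKM and was not tested.

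Glutathione is made by glutamate-cysteine ligase, whose catalytic and modifier subunits are Gclc and Gclm, followed by glutathione synthetase (Gss), and is recycled by glutathione reductase (Gsr). Gclm was the highest of the 4, with 74.8 and 81.0 in wild-type against 82.6 and 86.6 in G85R. Its mutant libraries were above both wild-type libraries, by 0.12 ± 0.10 (SE) on the log2 scale, with an adjusted p of 0.748 (limma). Gclc was lower than Gclm per length and overlapped between genotypes, at 15.6 to 18.0 RPKM. Gsr and Gss overlapped as well, at 18.7 to 20.5 and 15.8 to 19.1 RPKM.

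The glutathione S-transferases conjugate glutathione to electrophiles, and they held most of the larger differences. Of 22 entries 13 were tested, 8 with a positive and 5 with a negative fold change. Both libraries of one genotype lay apart from both of the other in 9 of the 13 (69.2%, background 41.2%), 5 of them higher (background 17.3%) and 4 lower (background 23.9%). Gstm5, Gsta4 and Gstp1 together held 73.0% of the summed transferase RPKM. Gstm5, the brain-enriched mu-class enzyme, was the highest with 139 and 128 in wild-type against 161 and 140 in G85R. The genotypes of Gstm5 lay apart by less than 1 RPKM (log2 fold change 0.17 ± 0.11 SE, adjusted p = 0.658, limma). Gsta4, which is specialised for the lipid peroxidation product 4-hydroxynonenal, overlapped with 74.4 and 63.1 in wild-type against 87.2 and 69.3 in G85R.

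Gstm6 showed the largest difference of any tested member. Its RPKM was 2.20 and 2.54 in wild-type against 0.878 and 0.735 in G85R, which corresponds to about 74, 91, 27 and 24 reads. Both mutant libraries were well below both wild-type libraries, by a log2 fold change of -1.45 ± 0.22 (SE; 95% interval -1.97 to -0.93), a 2.73-fold lower value. The unadjusted p was 0.000325 and the adjusted p 0.05004 (limma), which lies just above the threshold. This adjusted p crossed the threshold with the libraries used: it was 0.0217 without G85R replicate 1 and 0.0310 without G85R replicate 2, and 0.0844 and 0.162 without wild-type replicates 1 and 2. In each of these fits the lone library of a genotype is assumed to vary like the pair of the other.

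Gstm6 spans chr3:107741765-107746667 on the minus strand of mm9, and its exons overlap those of Gstm3 and Gm12494 on the same strand. An exact copy elsewhere was found for 7.30% of its 75-base windows. Gstm3 itself was at 0 in 3 libraries and at 0.0595 in the second G85R library.

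Gstm7, the neighbouring mu-class gene (chr3:107729252-107734735, minus strand of mm9), had RPKM of 7.65 and 8.12 in wild-type against 5.42 and 4.97 in G85R. Both mutant libraries were again lower, with a log2 fold change of -0.59 ± 0.13 (SE), an unadjusted p of 0.00258 and an adjusted p of 0.133 (limma). None of its windows had an exact copy elsewhere. The Gstm genes lie together on chromosome 3 in the order Gstm5, Gstm7, Gstm6, Gstm3, Gstm2, Gstm1 and Gstm4, with Gstm5 on the other strand. Other genes of the cluster did not share these lower values, since Gstm1 overlapped between genotypes (11.8 and 12.3 against 12.7 and 11.9) and Gstm4 was higher in both mutant libraries (7.25 and 7.43 against 7.96 and 8.49). Gstm2 was under the minimum at 0.0980 and 0.123 in wild-type against 0.215 and 0.202 in G85R, with no more than about 6 reads in any library, and 28.7% of its windows have a copy elsewhere.

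The theta-class genes also lie together, on chromosome 10 in the order Gstt3, Gstt1, Gstt4 and Gstt2, all on the minus strand. Gstt1 had RPKM of 4.16 and 5.16 in wild-type against 2.86 and 3.47 in G85R. Its mutant libraries were both lower, with a log2 fold change of -0.54 ± 0.18 (SE), an unadjusted p of 0.0189 and an adjusted p of 0.330 (limma). Gstt3 was lower in both mutant libraries too (1.30 and 1.17 against 0.860 and 0.998), and Gstt2 overlapped (1.45 and 0.924 against 1.02 and 0.773), neither with an unadjusted p under 0.05. The 3 tested theta genes all had negative fold changes, with a median of -0.38, a grouping by position that, like that of the Gstm genes, was made after the values were seen. Gstt4 was at 0 in wild-type and at 0.1204 and 0.113 in G85R, from about 3 reads each, which does not separate it from 0 at this depth.

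**Figure D3:**
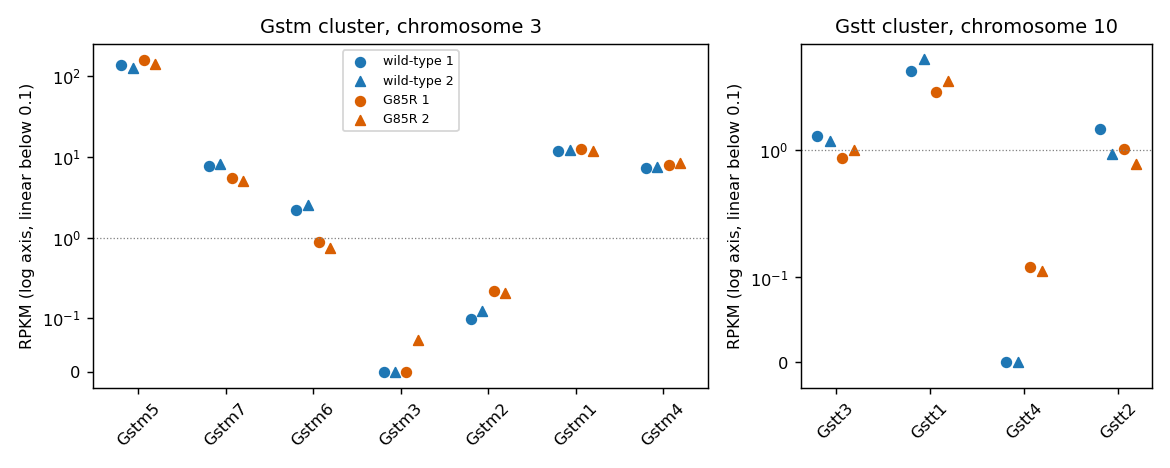
RPKM in each library of the Gstm genes of chromosome 3 and the Gstt genes of chromosome 10, in their order along the chromosome (log axis, linear below 0.1, with the minimum for testing as a dotted line). Gstm7 and Gstm6 are lower in both G85R libraries while Gstm1 and Gstm4 are not, and Gstt3 and Gstt1 are lower in both G85R libraries.

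Gstp1, the pi-class enzyme, had RPKM of 53.8 and 60.7 in wild-type against 68.6 and 67.5 in G85R. Both mutant libraries were higher, by 0.25 ± 0.11 (SE) on the log2 scale, with an unadjusted p of 0.0496 and an adjusted p of 0.451 (limma). The copy search limits this value, because 53.6% of its windows, and 65.2% of those of its neighbour Gstp2, have an exact copy elsewhere. Gstp2 was above 0 only in the second G85R library, at 0.0469.

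Of the other transferases, Gstz1, which also works in tyrosine breakdown, had 27.6 and 27.9 in wild-type against 32.2 and 28.9 in G85R, and Gsto1 overlapped at 31.6 to 39.1. Gstk1, of mitochondria and peroxisomes, had 2.57 and 3.63 in wild-type against 3.66 and 3.64 in G85R, where the second wild-type library lay next to the mutant ones. Gsta3 and Gsto2 were under the minimum at 0.126 to 0.497 and 0.149 to 0.343 RPKM. Both Gsta2 entries were above 0 only in the second wild-type library, at 0.0377 and 0.0368, and Gsta1 was listed at 0 in all 4.

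Hmox1 and Nqo1, both textbook targets of Nrf2, differed in opposite directions. Hmox1, which degrades heme, had RPKM of 5.93 and 6.50 in wild-type against 10.4 and 9.38 in G85R. Both mutant libraries of Hmox1 were higher, with a log2 fold change of 0.66 ± 0.13 (SE), a 1.58-fold higher value, an unadjusted p of 0.00143 and an adjusted p of 0.109 (limma). Nqo1, a quinone reductase, had 4.47 and 4.25 in wild-type against 3.04 and 3.20 in G85R. Both mutant libraries of Nqo1 were lower, with a log2 fold change of -0.47 ± 0.14 (SE), an unadjusted p of 0.0142 and an adjusted p of 0.302 (limma). Neither gene had a window with a copy elsewhere.

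The regulators themselves overlapped between genotypes. Nfe2l2, which encodes Nrf2, was low with 1.47 and 1.36 in wild-type against 1.61 and 1.16 in G85R. Keap1 was more than 10 times as abundant per length in the wild-type mean, 19.3 against 1.41, and had 18.2 and 20.5 in wild-type against 19.5 and 22.8 in G85R. Gclm, Txnrd1 and Srxn1, which are also known targets of Nrf2, had log2 fold changes of 0.12, -0.06 and 0.07. A separate list of Nrf2 partners and further targets had 19 tested entries, 12 with positive and 7 with negative fold changes (median 0.13). Its genotypes lay apart in 8 entries higher (background 17.3%) and 3 lower (background 23.9%) in G85R.

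**Figure D4:**
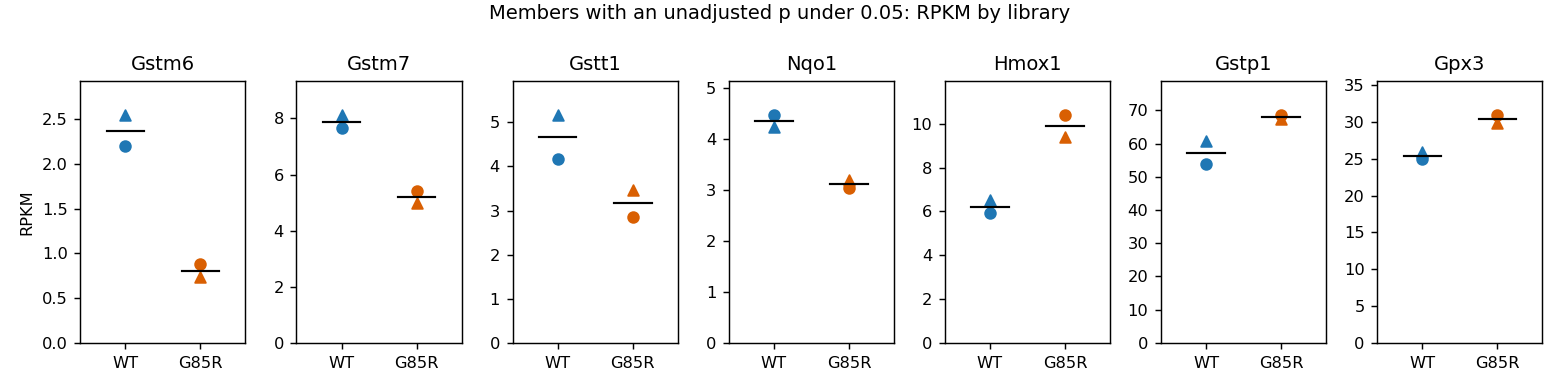
RPKM by library of the 7 members with an unadjusted p under 0.05, on linear axes from 0, with circles and triangles for replicates 1 and 2 and a line at the mean of each genotype. Gstm6, Gstm7, Gstt1 and Nqo1 are lower and Hmox1, Gstp1 and Gpx3 higher in both G85R libraries, and none had an adjusted p under 0.05.

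Markers of other cells moved with genotype in part, and their part in the member values was not tested. The 5 red blood cell entries summed to 2.31 and 2.72 RPKM in wild-type against 13.5 and 12.7 in G85R. Both Hbb-b1 entries were called by limma, and of both Hba-a2 entries only 1 was above 0, in the first G85R library at 0.132. The 8 tested of 10 microglial entries all had positive fold changes, but the sum of the second G85R library (26.2) lay close to wild-type (22.1 and 23.0) and that of the first (53.9) did not. The 10 astrocyte entries summed to 464 and 473 in wild-type against 644 and 552 in G85R. Of these entries, 9 had a positive and 1 a negative fold change. S100b alone held most of each sum, with 412 and 414 in wild-type against 498 and 483 in G85R. Gfap was at 11.5 and 17.1 in wild-type against 91.9 and 28.4 in G85R. It was called by the log-linear test (adjusted p = 3.03e-11) and not by limma (adjusted p = 0.212). None of the microglial or astrocyte entries was at 0 in any library. The 9 motor neuron entries included 8 with negative fold changes. Among them Prph, with 757 and 870 in wild-type against 647 and 709 in G85R, was called by the log-linear test (adjusted p = 0.000518). Its limma adjusted p was 0.439. The 9 oligodendrocyte entries summed to 955 and 894 in wild-type against 1138 and 872 in G85R, and the 9 endothelial entries to 14.99 and 14.7 against 13.5 and 12.8. Without G85R replicate 1, the library with the most microglial and Gfap RNA, the log2 fold change of Hmox1 was 0.59 (0.66 with all libraries). That of Gstm7 was -0.65 (-0.59), of Gstm6 -1.56 (-1.45), of Gstt1 -0.41 (-0.54) and of Gpx3 0.23 (0.26). The second G85R library, kept in that fit, had a red blood cell sum of 12.7 and S100b at 483, both above wild-type. Over the fits with a library left out, Gstp1 ranged from 0.16 to 0.34 and Nqo1 from -0.51 to -0.43.

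Linked genes of the same chemistry were taken from lists of 90 entries, 77 of them tested, that held other glutathione enzymes and transporters, thioredoxin-fold proteins, selenoprotein genes, NADPH supply, Sod1 with its copper chaperone, and partners and further targets of Nrf2. None was called by limma; 9 higher and 3 lower in G85R had an unadjusted p under 0.05 (background 4.66% and 6.37%). The genotypes lay apart in 38 of 77 (49.4%, background 41.2%), 24 higher (background 17.3%) and 14 lower (background 23.9%). By the log-linear test Fth1, the ferritin heavy chain and a target of Nrf2, was called, with 884 and 922 in wild-type against 1187 and 1095 in G85R (log2 fold change 0.34 ± 0.09 SE, limma adjusted p = 0.230).

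In each list the entry with the largest difference is given here. Nnt, a mitochondrial source of NADPH, had 2.80 and 3.67 in wild-type against 6.00 and 4.75 in G85R, with both mutant libraries higher (log2 fold change 0.72 ± 0.19 SE, limma adjusted p = 0.219). Chac1, which degrades glutathione, had 25.6 and 28.6 in wild-type against 18.7 and 21.6 in G85R, with both mutant libraries lower (-0.43 ± 0.12 SE, limma adjusted p = 0.266). Nxn, a thioredoxin-like protein, was lower in both mutant libraries by a log2 fold change of -0.42, and Eefsec, the elongation factor for selenocysteine, by -0.36. Ccs, the copper chaperone of SOD1, was higher in both mutant libraries by 0.36 and Cbr3, a carbonyl reductase, by 0.42. Mouse Sod1 overlapped, with 96.3 and 146 in wild-type against 124 and 150 in G85R.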

How the data were processed

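PolyA RNA of 4 libraries (2 wild-type SOD1-YFP, 2 G85R SOD1-YFP) was read as 75-base single-end reads. The authors mapped them with Bowtie 0.12.3 to mm9 (versions as in the submitters' processing notes) and a splice-junction database and quantified genes with Cufflinks, so the deposited values are RPKM per gene, with a second RPKM after 1 read was added to every gene. The difference of both gave the RPKM of 1 read and from it approximate reads per gene. These are not exact counts (62.2 to 63.5% of low estimates were whole within 0.05), so no count model was the main test, and no counting intervals were computed.

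Genes with a mean RPKM under 1 were left out, and G85R was tested against wild-type for the other 11530 by limma (version 3.58.1, R 4.3.3; trended eBayes) after log2(RPKM + 0.1), with Benjamini-Hochberg adjustment across these. The pseudocount makes fold changes of low genes too small. Tested on simulated data of 11530 genes with 200 changed 4-fold, a fold larger than that of any tested member, the fit recovered 98% of the changed genes, and 24 of its 220 calls were false (10.9%). Alternatives were other minimums, pseudocounts, scalings and variance settings, a replicate block, each library left out, and the log-linear likelihood-ratio test of the study.

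Copies elsewhere were searched as exact 75-base windows of transcripts in the mm9 genome, whose build also gives gene positions. Promoters were RefSeq's, build GRCm38.p6. Members and lists were chosen with earlier results of these data known. Named members were, in each role, the highest entry, each with an unadjusted p under 0.05, each with genotypes apart by a log2 fold change of at least 0.5, and each called by either test. Others are named with their level, and in linked lists the entry called or with the largest fold change. Each library came from its own animal. The transgene's own RNA was not analysed here.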

Additional observations from a re-analysis of the deposited data

How the results depend on the processing

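Over 14 named members, 191 of 207 values under alternatives kept their direction and their side of the threshold, 10 crossed to called and 6 reversed. The reversed values all belonged to members with fold changes near 0: without wild-type replicate 1 and without G85R replicate 2, the log2 fold change of Txn2 was -0.036 and -0.034, that of Cat -0.0018 and -0.055, and that of Gpx1 -0.15 and -0.093, within ranges over the left-out libraries of -0.036 to 0.091, -0.055 to 0.092 and -0.15 to 0.30. The number of called members, 0 as reported, was 1 with a minimum mean RPKM of 0.1, a pseudocount of 1, median-ratio scaling, no trend, robust eBayes or an adjusted p under 0.1 (Gstm6 in each), 1 with no minimum (Gstt4), and 7 at an unadjusted p under 0.05. With a library left out it was 0 to 1, Gstm6 being called when either G85R library was left out. The adjusted p of Gstm6 ranged from 0.00643 to 1, the latter in the log-linear test, which takes its low RPKM, rounded to whole numbers, as counts. The 74 genes called in all became 17 with a minimum of 5, 112 with none (2 of them among the 74), 40 after quantile normalization, 49 without trend, 142 at an adjusted p under 0.1, 1272 at an unadjusted p under 0.05, and 78 to 188 with a library left out (188 without G85R replicate 2). Linked genes called, 0 as reported, were 1 by the log-linear test and 12 at an unadjusted p under 0.05. The median log2 fold change of members, 0.051, was 0.090 with a minimum of 5, 0.079 with median-ratio scaling, and 0.0026 (without wild-type replicate 1) to 0.056 with a library left out. The cause of these changes was not tested.

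The labels number the libraries but say nothing that pairs them. Deviations of same-numbered libraries from their genotype means correlated at r = 0.220 across 11530 genes and 0.543 across the 40 members. With 2 libraries per genotype, the second pair is the mirror image of the first and adds no separate correlation. With a replicate block, 3 members (Gstm6, Gstm7 and Hmox1), 3 linked genes and 527 genes in all were called. With 2 animals per genotype, 13 of 40 member intervals reached past a 1.5-fold change and leave a difference of that size possible for them. An RPKM near 0.1 rests on a few reads.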

Other observations

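The groupings given here were also made after the values were seen and are given as values only. Of the members, 7 entries carry selenocysteine in their active site (Gpx1, Gpx2, Gpx3, Gpx4 and the 3 thioredoxin reductases), and of the 6 tested 3 had positive and 3 negative fold changes, with a median of 0.0027. A list of 5 members known from mitochondria (Sod2, Prdx3, Prdx5, Txn2 and Txnrd2) leaves out Gstk1 and others also found there. In each of the 5 the genotypes overlapped, with log2 fold changes from -0.05 to 0.15. Over all tested genes, 41.2% had genotypes that did not overlap. Gstk1 was higher in both G85R libraries, by 0.25 on the log2 scale, so the uniform overlap depends on the choice of list. The summed RPKM of the 5 was 811 and 783 in wild-type against 883 and 840 in G85R. Among the linked genes, Glrx (glutaredoxin) and Hagh (a glyoxalase) were higher in both G85R libraries, with 35.9 and 31.6 against 45.9 and 44.0 and with 87.1 and 90.8 against 113 and 108 RPKM, and limma adjusted p-values of 0.220 and 0.291.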
